A study of Mus musculus with 16 samples.

Results

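The circadian clock genes Arntl, Clock, Npas2, Per1, Per2, Per3, Cry1, Nr1d1, Nr1d2 and Dbp were followed on 16 arrays of mouse liver RNA, 1 array per labelled sample. These 10 genes were chosen by name, every array probe that carries 1 of the names was collected, and the 12 such probes among 55681 were read on each array. Where a gene had more than 1 probe, the probe with the highest mean signal was used. Of the 10 genes, 9 passed the filter of signal well above background on at least 3 arrays and were tested among 24356 genes. The mice were male BALB/c, aged 6 to 8 weeks when the 4 weeks of treatment began, and fed regular chow. They were either wild type (WT) or knockout for lipocalin 2 (Lcn2-/-), with an allele made on a 129/Ola X C57BL/6 background and then crossed back to BALB/c. CCl4, a solvent that liver cells turn into a toxic radical, was diluted in corn oil and injected into the abdomen at 0.5 ml/kg 2 times a week for 4 weeks, and control mice received corn oil. The mice given CCl4 were killed 48 h after the last dose, and the interval for control mice is not given in the sources used here. The WT arrays comprised 4 controls and 5 after CCl4, and the Lcn2-/- arrays 3 controls and 4 after CCl4. The labels call the samples of a group replicates and do not say that each is a separate animal, so p-values measure the spread between these samples. The hour of the day at which livers were taken, and the light cycle, are not given in the sources used here.

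The clock is a feedback loop that turns once a day in nearly every cell, the hepatocyte included. Arntl (Bmal1) pairs with Clock or its relative Npas2, binds E-boxes and switches on the Per and Cry genes, whose proteins return to block the pair. The same pair drives Nr1d1 and Nr1d2 (Rev-erb alpha and beta), nuclear receptors that repress Arntl through RORE sites, and Dbp, an output factor that binds D-boxes. In liver, therefore, Arntl, Clock and Npas2 (the positive limb) peak at nearly the opposite time of day from Nr1d1, Dbp and the Per genes, with Nr1d1 and Dbp before the Per genes and Cry1 later still. A single time point per mouse cannot separate a shifted phase from a changed amplitude.

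Lcn2 separated the genotypes as labelled. Its log2 signal lay between 13.79 and 17.57 in the 9 WT livers and between 10.47 and 12.25 in the 7 Lcn2-/- livers. Whole-liver RNA holds several cell types, and fewer cells of a type and less RNA per cell cannot be told apart here. The 8 hepatocyte markers were well above background on all arrays, and their summed signal, on the log2 scale, spanned 21.28 to 21.52 over all 4 groups. That of the 8 stellate cell and myofibroblast markers lay between 13.58 and 15.77 in control livers and between 16.33 and 17.76 in CCl4 livers. The position of the arrays is not balanced. All 7 control arrays and WT CCl4 array 1 were on slide 1, and the other 8 CCl4 arrays were on slide 2. All 7 Lcn2-/- arrays lay in row 2 of a slide, whereas 8 of the 9 WT arrays lay in row 1 and WT CCl4 array 1 in row 2.

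Short stretches near the start of 5 members hold letters that match motifs of the loop, and are given as background. RefSeq promoters (build GRCm38.p6), from 250 bases before to 50 after the start, matched 9 of the 10 genes, all but Per2, in 13 entries. On either strand of these 300 bases, the E-box CACGTG was found in 7.15% of all 32851 promoters, the weaker E-box CACGTT in 4.68%, the RORE core TAGGTCA in 2.61% and the D-box, TTATGTAA or TTACGTAA, in 1.06%. Of the 13 entries of the clock genes, the E-box was found in 2, the weaker E-box in 2, the RORE core in 1 and the D-box in 1. The motifs share no position in the windows printed here. Capitals mark the matches, and each line reads 5′ to 3′ on the gene's strand.
Per1, chr11:69098759-69098818, plus strand: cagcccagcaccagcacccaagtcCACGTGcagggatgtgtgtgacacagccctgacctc
Cry1, chr10:85185095-85185154, minus strand: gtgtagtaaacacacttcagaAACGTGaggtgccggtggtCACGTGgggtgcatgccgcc
Nr1d1, chr11:98775378-98775437, minus strand: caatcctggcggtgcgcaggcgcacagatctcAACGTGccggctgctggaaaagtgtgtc
Per3, chr4:151044801-151044890, minus strand: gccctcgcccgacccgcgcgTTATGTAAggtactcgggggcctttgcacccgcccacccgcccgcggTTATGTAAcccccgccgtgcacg
Arntl, chr7:113207531-113207557, plus strand: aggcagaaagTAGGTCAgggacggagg
Per1 and Cry1 each hold 1 E-box, 166 and 60 bases before the start. AACGTG, the weaker E-box read on the other strand, lies 79 bases before the start of Cry1 and 28 before that of Nr1d1. Per3 holds 2 copies of the D-box, 205 and 158 bases upstream. The RORE core of Arntl begins 30 bases after 1 of its starts. In the entries of Clock, Npas2, Nr1d2 and Dbp these letters did not occur, which describes this window only. A match describes the sequence and shows no binding.

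The probe of Arntl lies at chr7:120457261-120457320, that of Clock at chr5:76641377-76641436 and that of Nr1d1 at chr11:98630526-98631028, in mm9 coordinates as the array files give them. Within groups, 6 of the 9 tested clock genes varied more between livers than the median gene did. The within-group SD of Arntl was 0.557 on the log2 scale, above 80.9% of the genes tested, and that of Per3 was 0.590, above 83.1%. Dbp (SD 0.282), Clock (0.282) and Nr1d2 (0.165) lay below the median of all genes. Dbp was the brightest probe of the set, at log2 signals of 16.41 to 17.47, and among genes of like signal its SD was above 85.7%. Over the 16 livers Arntl spanned 3.07 log2 units, the widest range of the 9 tested genes, and Nr1d2 spanned 0.67, the narrowest.

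**Figure D1:**
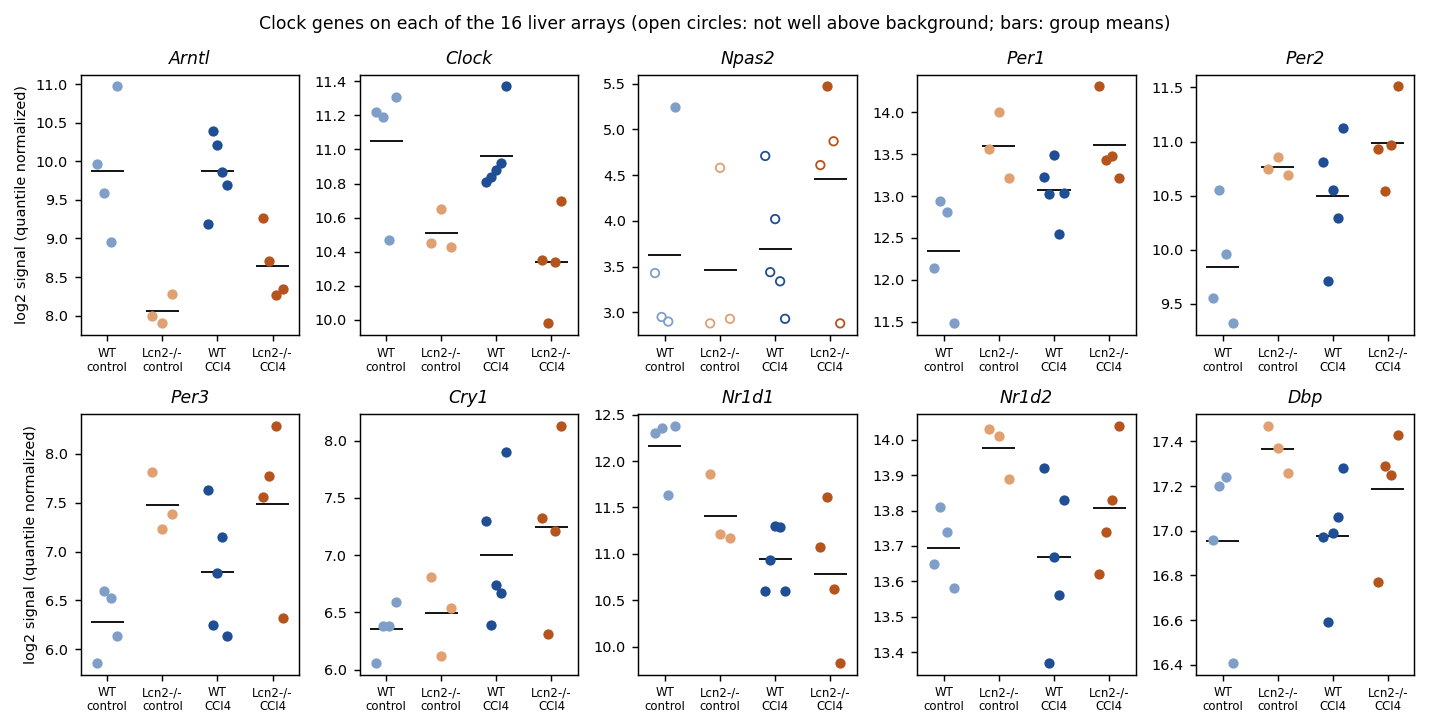
Log2 signal (quantile normalized) of each of the 10 clock genes on each array, by group, with group means as bars; open circles are spots not well above background. Arntl sits between 7.90 and 8.28 in Lcn2-/- control livers and between 8.95 and 10.97 in WT control livers.

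Npas2, which can take the place of Clock as the partner of Arntl, was near the background in these livers. Its probe was well above background on 2 of the 16 arrays, at 5.25 in WT control 4 and 5.47 in Lcn2-/- CCl4 2. WT control 4 was also the liver with the highest Arntl signal. The gene was not tested.

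In control livers, Lcn2-/- mice had less Arntl and more Per1, Per2, Per3, Nr1d2 and Dbp than WT mice in every pair of arrays, but none of the 9 genes passed the test after adjustment over all genes. The question put to this contrast was whether the knockout alone goes with another clock state. Of the 9 tested genes, 6 (66.7%) did not overlap between the genotypes, 5 higher and 1 lower in Lcn2-/-, where 9.64% of all genes tested did not overlap. By the limma test 0 of the 9 genes had an adjusted p under 0.05, against 0.53% of all genes tested, and 5 had an unadjusted p under 0.05.

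Among the activators, Arntl read 9.97, 9.59, 8.95 and 10.97 in the WT control livers and 7.99, 7.90 and 8.28 in the Lcn2-/- control livers. The lowest WT value lay above the highest Lcn2-/- value. The difference was -1.82 (SE 0.398), 3.52-fold, with an adjusted p of 0.0677, rank 156 of 24356 genes by p. Clock read 11.22, 11.19, 10.47 and 11.31 in WT controls against 10.45, 10.65 and 10.43 in Lcn2-/- controls. WT control 3 fell within the Lcn2-/- range, and the other WT control livers lay above it. The Clock difference was -0.54 (SE 0.211, adjusted p 0.449). WT control 3, which also had the highest Lcn2 signal (17.57) of all arrays, had the lowest Arntl of the WT controls. Without it the Arntl difference was -2.12 with an adjusted p of 0.0182. Over all 16 arrays left out singly, the Arntl difference ran from -2.12 to -1.45 and was called in 1 case. With replicate number as a block over all 16 arrays it was -1.73 with an adjusted p of 0.214.

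The Per genes, the repressors made in the first wave of the loop, stood the other way. Per1 read 12.14, 12.94, 12.81 and 11.48 in WT controls and 13.56, 14.00 and 13.22 in Lcn2-/- controls, without overlap, a difference of 1.25 (SE 0.350, adjusted p 0.185). Per2 read 9.55, 10.55, 9.96 and 9.32 in WT controls and 10.75, 10.86 and 10.69 in Lcn2-/- controls. The Lcn2-/- values lay close together and above all WT values, and the difference was 0.92 (SE 0.332, adjusted p 0.378). Per3 read 5.86, 6.59, 6.52 and 6.13 against 7.82, 7.23 and 7.38, a difference of 1.20 (SE 0.421, adjusted p 0.352). All 3 Per genes were thus higher in each Lcn2-/- control liver than in any WT control liver, by 1.90-fold to 2.38-fold in the group means. Cry1, the repressor that peaks last, overlapped, at 6.06 to 6.59 in WT and 6.12 to 6.81 in Lcn2-/- controls, with a difference of 0.14 and a 95% interval of -0.69 to 0.97.

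The Rev-erb receptors had mean differences of opposite sign, neither of which passed, and the 2 genes were not tested against each other. Nr1d1 read 12.30, 12.35, 11.63 and 12.38 in WT controls and 11.86, 11.21 and 11.17 in Lcn2-/- controls. It was lower in the mean of Lcn2-/- livers, with overlap, by a difference of -0.75 (SE 0.352, adjusted p 0.605). Nr1d2 read 13.65, 13.81, 13.74 and 13.58 against 14.03, 14.01 and 13.89, without overlap and in the other direction, a difference of 0.28 (SE 0.138, adjusted p 0.649). The other Nr1d2 probe gave 12.65 to 13.03 in WT and 12.94 to 13.16 in Lcn2-/- controls, which overlapped. Dbp, the output factor, read 16.96, 17.20, 17.24 and 16.41 against 17.47, 17.37 and 17.26, a difference of 0.41 (SE 0.212, adjusted p 0.683). The lowest Lcn2-/- value lay just above the highest WT value. On the other Dbp probe the groups were further apart, at 15.82 to 16.91 in WT and 17.06 to 17.25 in Lcn2-/- controls.

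Under CCl4, Arntl and Clock were again lower in Lcn2-/- livers, and neither passed. Here 0 of 9 genes had an adjusted p under 0.05 in the limma test, against 0.632% of all genes tested, and 2 had an unadjusted p under 0.05. Arntl read 9.19, 10.39, 10.21, 9.86 and 9.69 in WT CCl4 livers and 9.27, 8.71, 8.27 and 8.34 in Lcn2-/- CCl4 livers. A single pair crossed over, WT CCl4 1 and Lcn2-/- CCl4 1. The difference was -1.22 (SE 0.350, adjusted p 0.156). Clock read 10.81, 10.84, 10.88, 10.92 and 11.37 in WT and 10.35, 9.98, 10.34 and 10.70 in Lcn2-/- CCl4 livers. It was the 1 clock gene of 9 (11.1%) whose groups did not overlap, where 5.66% of all genes did not, and its difference was -0.62 (SE 0.186, adjusted p 0.175).

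The repressors and Dbp overlapped between genotypes under CCl4. Differences were 0.54 for Per1 (95% interval -0.12 to 1.20), 0.49 for Per2 (-0.14 to 1.11), 0.70 for Per3 (-0.10 to 1.49) and 0.24 for Cry1 (-0.48 to 0.97). Nr1d1 differed by -0.16, Nr1d2 by 0.14 and Dbp by 0.21, with adjusted p of 0.846, 0.645 and 0.655. The other probes gave larger differences, 0.28 for Nr1d2 (adjusted p 0.335) and 0.48 for Dbp (adjusted p 0.350). These intervals include both no difference and changes of the size seen in control livers for Per2 and Per3.

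The genotype difference was also taken as the mean over both treatments, a contrast added after the values were seen, and in it Arntl and Clock were lower in Lcn2-/- livers. Arntl was lower by 2.87-fold, a difference of -1.52 (SE 0.265, adjusted p 0.00792), and Clock by 1.50-fold, a difference of -0.58 (SE 0.141, adjusted p 0.0459). These 2 of 9 genes compare with 2.3% of all genes tested. Per1 differed by 0.90 (adjusted p 0.0633), Per3 by 0.95 (0.0973) and Per2 by 0.71 (0.119), all higher in Lcn2-/- means and none past the threshold. Nr1d2 (0.21), Dbp (0.31) and Cry1 (0.19) had higher means and Nr1d1 (-0.46) a lower one, with adjusted p of 0.269, 0.288, 0.753 and 0.346. With its other probe Dbp differed by 0.56 and did not pass.

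The Arntl call held with slide as a block, at -1.60 (adjusted p 0.00566). Among the 8 arrays of slide 2, all from CCl4 livers, it was -1.39 (adjusted p 0.0742). It was called without each single array in turn (adjusted p 0.00261 to 0.0253). The row within a slide could hardly be told apart from genotype, since WT CCl4 1 was the only WT array in row 2. With row as a block the Arntl difference was -0.76 with an SE of 0.563 (adjusted p 0.821), and that of Clock was -0.41 (adjusted p 0.826). That of Arntl was -0.55 under CCl4 (SE 0.558, adjusted p 0.815) and -0.97 in controls (SE 0.676, adjusted p 0.993). In the same fit Per3 differed by 0.0074 in the mean and by 0.16 in controls, Per2 by 0.35 and 0.53, and Per1 by 0.71 and 1.04. In that array Arntl was 9.19, below the other WT CCl4 livers and within the range of Lcn2-/- CCl4 livers, whereas Clock, at 10.81, lay above all 7 Lcn2-/- livers. The Clock call was lost in 19 of 27 alternative settings, among them the replicate block (-0.49, adjusted p 0.0814). Of the 91 other genes tested with probes within 10 Mb of the Clock probe on chromosome 5, 8 (8.79%) were called in the same contrast. Around Arntl on chromosome 7 it was 1 of 241 (0.415%), and 2.3% of all genes tested were called. The share was 3.78% around Per2, 3.70% around Per3 and 2.53% around Nr1d1, and 0% to 1.86% around the other tested clock genes. The part of array row and of neighbouring sequence in the genotype differences was not tested further.

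**Figure D2:**
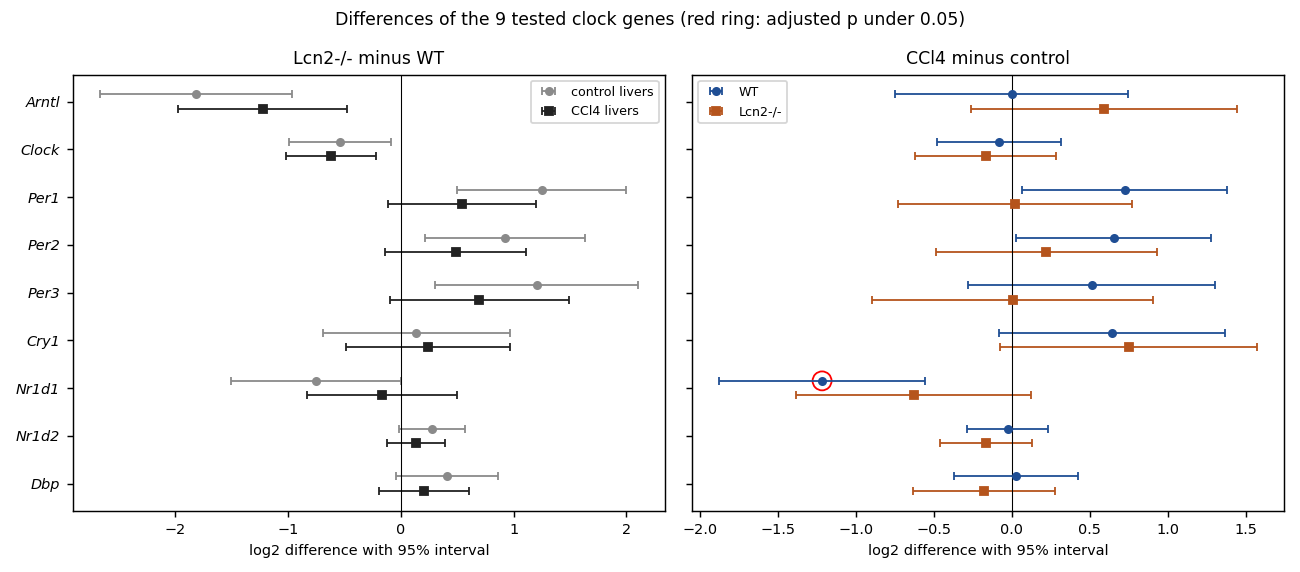
Log2 differences of the 9 tested clock genes with 95% intervals, Lcn2-/- minus WT on the left (controls and CCl4 livers) and CCl4 minus control on the right (WT and Lcn2-/- livers). The interval of Arntl lies below 0 in both genotype comparisons, and the one ringed point, adjusted p under 0.05, is Nr1d1 in WT at -1.22.

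To place each liver on the loop, the gene-centred log2 signals of Arntl and Clock were averaged and the mean of the 7 negative limb and output genes was subtracted. This limb difference was 1.05, 0.37, -0.09 and 1.68 in the WT control livers and -1.15, -0.89 and -0.72 in the Lcn2-/- control livers. In CCl4 livers it was -0.11, 1.10, 0.56, 0.55 and 0.50 in WT and -0.47, -0.80, -0.98 and -0.60 in Lcn2-/-. The 7 Lcn2-/- livers were thus the 7 lowest of 16 whatever the treatment, and this order held with 75th percentile scaling, normexp background correction, the deposited table, the next brightest probes and without Cry1. Leaving an array out only re-centres the score and cannot change the order of the others. No single clock gene separated all 9 WT from all 7 Lcn2-/- livers, which 0.49% of all genes tested did. The lowest WT livers were WT CCl4 1, in row 2 of slide 1, at -0.11 and WT control 3, in row 1, at -0.09. The group ranges of the 2 treatments overlapped within each genotype, with WT means of 0.75 ± 0.78 (SD, n = 4) in controls and 0.52 ± 0.43 (n = 5) under CCl4, and Lcn2-/- means of -0.92 ± 0.22 (n = 3) and -0.71 ± 0.23 (n = 4). The score is given as a description, since its members were chosen together. All settings kept Arntl, and its part in the order of the livers was not tested.

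**Figure D3:**
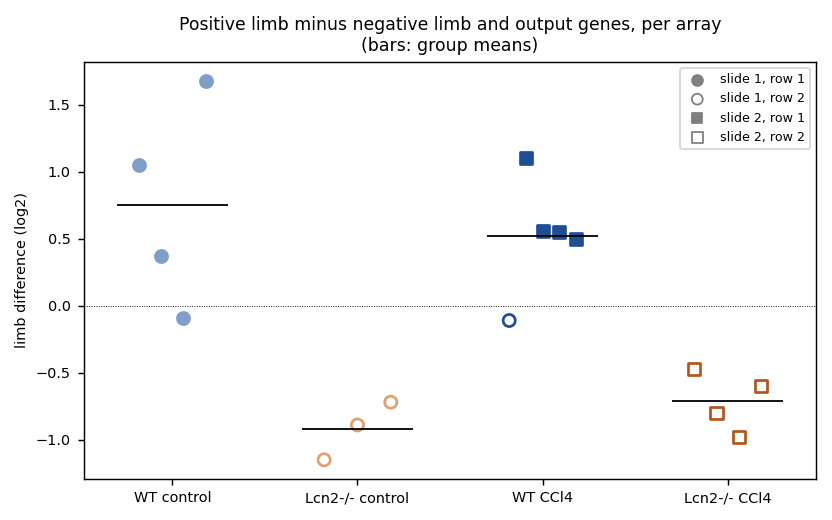
Limb difference (log2) of each liver by group, with group means as bars; circles are slide 1, squares slide 2, filled symbols row 1 and open symbols row 2. The 7 Lcn2-/- livers lie between -1.15 and -0.47 and the 9 WT livers between -0.11 and 1.68.

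After CCl4, Nr1d1 fell in WT livers and was the only clock gene to pass in either genotype. It is the receptor that represses Arntl and, in liver, genes of lipid and bile acid metabolism. WT control livers read 12.30, 12.35, 11.63 and 12.38 and WT CCl4 livers 10.60, 10.94, 11.30, 11.29 and 10.60. Every CCl4 liver lay below every control liver. The change was -1.22 (SE 0.309, adjusted p 0.0148), 2.33-fold. This is 1 of 9 genes called, against 16.8% of all genes tested, and 1 of 9 without overlap, against 17.4%. Slide goes with treatment here. With slide as a block the change was -1.56 (adjusted p 0.106), set by WT CCl4 1 at 10.60 against the WT controls of the same slide, and within slide 1 it was -1.56 (adjusted p 0.0785). With replicate number as a block it was -1.13 (adjusted p 0.0539).

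The remaining clock genes did not pass in WT livers. Arntl had a mean of 9.87 in both WT groups, with an interval of the difference from -0.75 to 0.75, and Clock differed by -0.09. Per1 and Per2 were higher in the mean by 0.72 and 0.65, with adjusted p of 0.127 and 0.144, and Per3 by 0.51 (0.379). Cry1 read 6.06, 6.38, 6.38 and 6.59 in WT controls and 7.30, 6.39, 6.74, 6.67 and 7.90 in WT CCl4 livers, a difference of 0.64 (adjusted p 0.219). All but WT CCl4 2 among these lay above the controls. Nr1d2 (-0.03) and Dbp (0.03) had intervals of -0.29 to 0.23 and -0.37 to 0.42. With its other probe Nr1d2 differed by 0.23, in the other direction. With slide as a block, where WT CCl4 1 again sets the values, Per3 differed by 1.35 (SE 0.571, adjusted p 0.199), Per2 by 0.97 (0.287), Cry1 by 0.94 (0.376), Per1 by 0.89 (0.363) and Arntl by -0.68 (0.519), and 0 of 9 passed.

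In Lcn2-/- livers 0 of 9 clock genes passed under CCl4 in the limma test, against 12.2% of all genes tested, and 0 had an unadjusted p under 0.05. Nr1d1 read 11.86, 11.21 and 11.17 in Lcn2-/- controls and 11.07, 11.61, 10.62 and 9.83 in Lcn2-/- CCl4 livers. It was lower in the mean, with overlap, by -0.63 (SE 0.352, adjusted p 0.268). Without single arrays this ran from -0.91 (without Lcn2-/- CCl4 2) to -0.32 (without Lcn2-/- CCl4 4), with 0 calls. Cry1 read 6.81, 6.12 and 6.54 against 7.32, 6.31, 7.21 and 8.13, a difference of 0.75 (adjusted p 0.230). Arntl differed by 0.59 (95% interval -0.26 to 1.44), Per1 by 0.02 (-0.73 to 0.77) and Per3 by 0.01 (-0.90 to 0.91). Per2 (0.22), Clock (-0.17), Nr1d2 (-0.17) and Dbp (-0.18) had adjusted p of 0.716, 0.658, 0.464 and 0.634. No Lcn2-/- CCl4 array was on slide 1, so the fit with slide as a block takes the slide difference from WT CCl4 1. It gave 1.05 for Per3 (adjusted p 0.491), 0.61 for Per2 (0.658), 1.12 for Cry1 (0.464), -1.06 for Nr1d1 (0.442) and -0.26 for Arntl (0.895), in which Arntl turns direction.

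The response to CCl4 was not shown to differ between the genotypes for any clock gene. The interaction, which subtracts the change in WT from that in Lcn2-/- livers, gave 0 of 9 calls with limma at adjusted p of 0.9999 (0.0534% of all genes tested were called, and 0 of the 9 had an unadjusted p under 0.05). It was 0.59 for Nr1d1 (95% interval -0.42 to 1.59) and -0.71 for Per1 (-1.71 to 0.29). It was 0.59 for Arntl, 0.11 for Cry1, -0.08 for Clock, -0.43 for Per2, -0.51 for Per3, -0.14 for Nr1d2 and -0.20 for Dbp. Taken as the mean of both genotypes, a contrast added after the values were seen, Nr1d1 fell by 0.93 (SE 0.234, adjusted p 0.00869) and Cry1 was higher by 0.70 (SE 0.257, adjusted p 0.0540). That is 1 of 9 genes called, where 30.4% of all genes tested were called. Per2 (0.44), Per1 (0.37), Arntl (0.29) and Per3 (0.26) had higher means under CCl4, with adjusted p of 0.150, 0.249, 0.431 and 0.518. Clock (-0.13), Nr1d2 (-0.10) and Dbp (-0.08) had lower ones, with adjusted p of 0.531, 0.446 and 0.716. With its other probe Nr1d2 was higher under CCl4, by 0.25, and was called (adjusted p 0.0479), so its direction depends on the probe. With slide as a block 0 of 9 passed.

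Within groups, livers with more Arntl had less Dbp, Nr1d2 and Per2. After each group's mean was removed, Arntl and Dbp correlated at r = -0.82 over the 16 livers, Arntl and Nr1d2 at -0.71, and Arntl and Per2 at -0.61. Per2 and Nr1d2 correlated at 0.84 and Nr1d2 and Dbp at 0.72. Nr1d1 was the exception among the repressors, at 0.50 with Arntl and -0.53 with Nr1d2. Of the 36 pairs, 9 exceeded 0.6 in size. These values describe livers that share slides, and no p is given for them. The 9 CCl4 livers pool both genotypes, whose Arntl values cross in a single pair, so relations over them also carry the genotype difference. There the r of Arntl was -0.74 with Nr1d2, with an exact permutation p of 0.0230, adjusted to 0.0526 over the 16 relations computed. Spearman's rho was -0.74 (exact permutation p 0.0263, adjusted 0.0841), and r was -0.65 without the 2 livers farthest from the median of Arntl. With Per2 the r was -0.70 (adjusted 0.0585 in the exact permutation test) and rho -0.63, and with Dbp -0.69 (adjusted 0.0690) and -0.62. Without the same 2 livers these were -0.57 and -0.51. No relation within the CCl4 livers passed the adjustment. In control livers the genotypes form separate clusters in Arntl and neither holds 6 livers, so no pooled r is given. There 6 of the 8 pooled relations passed the adjustment by Pearson's r. By Spearman's rho those with Clock (exact permutation p adjusted to 0.114) and Per3 (0.0843) did not. These relations cannot be told apart from the difference between genotypes.

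**Figure D4:**
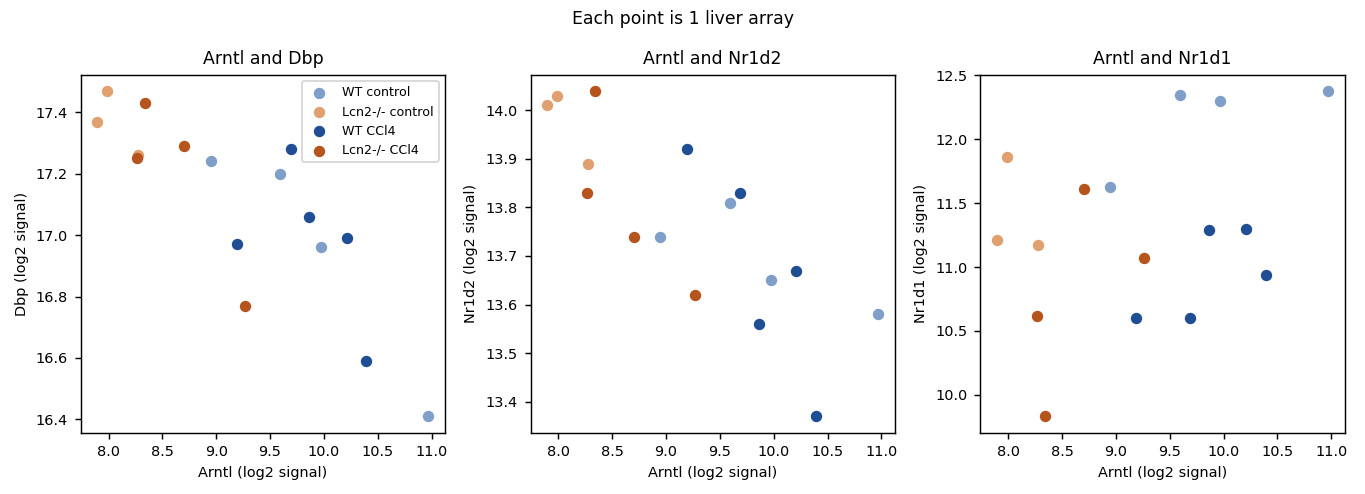
Log2 signal of Arntl against Dbp, Nr1d2 and Nr1d1, 1 point per liver and 1 colour per group. Dbp and Nr1d2 are lower where Arntl is higher (r = -0.82 and -0.71 after removal of group means), and Nr1d1 is not (r = 0.50).

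Over the 24355 other genes and unnamed transcripts, the named genes most like Arntl across the 16 livers, group means removed, were Lrfn3 (r = 0.88), Insig2 (0.86), Ethe1 (0.82), Rhou (0.80) and Trip11 (0.79). The 5 most opposed were Slc5a6 (-0.85), Tef (-0.85), D7Wsu130e (-0.84), Slc20a1 (-0.84) and Usp2 (-0.83). Tef is a relative of Dbp that binds the same D-box, and Usp2 is a deubiquitinase with a strong daily rhythm. Dbp was most like Tmtc4 (0.85), Rgs16 (0.85), Ppargc1b (0.84), Sdhb (0.84) and Fchsd2 (0.84). Among named genes Arntl was the next most opposed to Dbp after Pdgfc (-0.87) and before 4933428M09Rik (-0.82), Unc119b (-0.80) and Denn2b (-0.79). By rank from the opposed end of the Arntl list, unnamed transcripts included, Tef was at 2, Usp2 at 6, Dbp at 7, Wee1 at 12 and Nr1d2 at 35. Per2 stood at 160, Ciart at 352, Cry2 at 1020, Per1 at 2431, Per3 at 3452, Cry1 at 5387 and Bhlhe41 at 9315, and Hlf, another relative of Dbp, at 14296 (r = 0.05).

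Other genes of the clock gave no call between genotypes. Of 25 other core clock and modifier names listed (Ciart also by its older name, Gm129), 24 were tested. In both genotype contrasts 0 of 24 passed in the limma test, where 0.53% of all genes tested passed in controls and 0.632% under CCl4. Ciart, a repressor of the Arntl and Clock pair, had the lowest p in controls. It read 8.67, 10.21, 9.38 and 6.71 in WT controls and 11.34, 11.24 and 10.29 in Lcn2-/- controls. The groups did not overlap, where 9.64% of all genes tested did not, and the difference was 2.21 (SE 0.648, adjusted p 0.208). Under CCl4 Ciart read 8.43 to 9.89 in WT and 9.84 to 11.16 in Lcn2-/- livers, a difference of 1.13 (adjusted p 0.403). Nfil3, a repressor at D-boxes, had the lowest p in the interaction, 0.47 (adjusted p 0.9999).

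After CCl4, 2 of these 24 genes fell in both genotypes, Bhlhe41 and Rorb, and 0 rose, where 16.8% of all genes tested were called in WT and 12.2% in Lcn2-/- livers. Bhlhe41 (Dec2), which competes at E-boxes, read 6.59 to 7.47 in WT controls and 5.06 to 6.31 in WT CCl4 livers, a change of -1.55 (SE 0.258, adjusted p 0.000857). In Lcn2-/- livers it went from 7.34 to 7.56 down to 5.70 to 6.32, a change of -1.54 (adjusted p 0.0034). Its probe was well above background on 3 of 5 WT CCl4 and 3 of 4 Lcn2-/- CCl4 arrays, so these changes rest in part on signal near background. Rorb, an activator at RORE sites, changed by -1.62 in WT livers (adjusted p 0.0133), with 4 of 5 CCl4 arrays well above background. In Lcn2-/- CCl4 livers 1 of 4 arrays was, so the size of that change (-1.75, adjusted p 0.0222) rests mostly on signal near background. Cry2, Rora, Hlf, Tef and Bhlhe40 did not pass. With slide as a block, 1 of the 24 genes was called in WT and 0 in Lcn2-/- livers. The count was also 1 in WT without WT control 1, and 1 in Lcn2-/- livers without Lcn2-/- control 1 or 2 or Lcn2-/- CCl4 1 or 2.

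Of 17 clock-driven liver output genes listed, 16 were tested. In the genotype contrast averaged over treatments, 3 of the 16 passed, where 2.3% of all genes tested did. Usp2 was higher in Lcn2-/- livers (1.62, SE 0.350, adjusted p 0.0252), as was Por (0.82, SE 0.197, adjusted p 0.0432), the electron donor of cytochrome P450 enzymes. Insig2, which restrains cholesterol and fat synthesis, was lower (-0.96, SE 0.172, adjusted p 0.00957). Insig2 read 15.44 to 16.93 over the 9 WT livers and 14.81 to 15.43 over the 7 Lcn2-/- livers. Usp2 read 11.33, 12.39, 12.70 and 10.55 in WT controls against 13.62, 13.86 and 13.33, and 11.80 to 13.62 against 13.23 to 14.45 under CCl4. Each genotype contrast alone gave 0 of 16, where 0.53% of all genes tested passed in controls and 0.632% under CCl4. The lowest p was that of Alas1 in controls (1.46, adjusted p 0.158) and of Insig2 under CCl4 (-1.04, adjusted p 0.0593). The interaction gave 0 of 16. With slide row as a block, 0 of 16 passed in the averaged contrast, and with slide as a block 3 did. Without single arrays the count ran from 1 (without WT control 1, Lcn2-/- control 1 or 2, WT CCl4 4 or Lcn2-/- CCl4 3) to 5 (without Lcn2-/- CCl4 2).

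CCl4 moved the output genes in both directions. In WT livers 3 rose and 4 fell, with a median change of 0.14, and in Lcn2-/- livers 2 rose and 4 fell, of 16 in each, where 16.8% and 12.2% of all genes tested were called. The circadian fatty acid elongase Elovl3 changed by -3.26 in WT (SE 0.514, adjusted p 0.000574) and by -3.36 in Lcn2-/- livers (adjusted p 0.00198). Nr1i3, the xenobiotic receptor CAR, changed by -1.33 and -1.03, Avpr1a by -1.33 and -1.62, and Slc16a1 by -0.46 and -0.57. Lonrf3 rose by 1.00 and 0.74. Alas1, the first enzyme of heme synthesis (1.20), and Por (0.83) rose in WT, and Cdkn1a (2.66) rose in Lcn2-/- livers. In the other genotype these genes did not pass. There the control and CCl4 means were 17.81 and 17.93 for Alas1, 15.86 and 16.75 for Por, and 8.99 and 10.9 for Cdkn1a. With slide as a block, 3 of 16 were called in WT and 0 in Lcn2-/- livers. Without single arrays the count ran from 4 (without WT control 2 or WT CCl4 1, 2 or 5) to 9 in WT livers, and from 2 (without Lcn2-/- control 1) to 7 in Lcn2-/- livers.

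**Figure D5:**
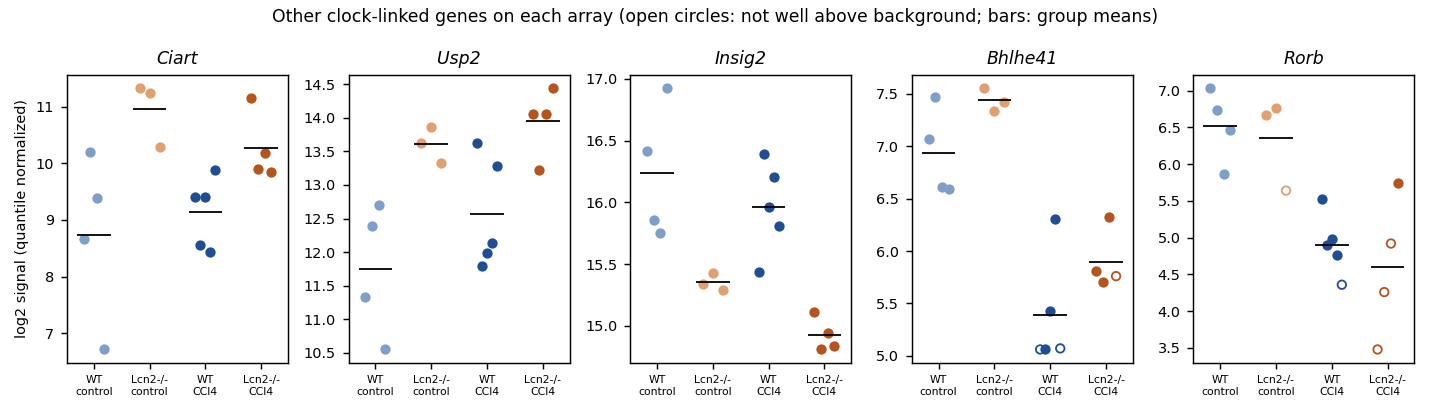
Log2 signal (quantile normalized) of Ciart, Usp2, Insig2, Bhlhe41 and Rorb on each array by group, with group means as bars and open circles for spots not well above background. Ciart and Usp2 do not overlap between WT and Lcn2-/- control livers, where 9.64% of all genes tested did not. Bhlhe41 is lower in CCl4 livers of both genotypes (5.06 to 6.32) than in control livers (6.59 to 7.56).

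Feeding, stress hormone and temperature also set liver clock genes, so genes known for each were read beside them. Of 10 fasting-induced genes, 1 differed by genotype in controls, where 0.53% of all genes tested did. Fgf21, a fasting hormone, read 10.16 to 11.88 in WT and 6.0 to 8.49 in Lcn2-/- control livers, a difference of -3.49 (SE 0.610, adjusted p 0.0153). The count was lower in 4 of 28 alternative settings. Among these it was 0 with slide row as a block, without WT control 1 and without WT control 2. Under CCl4 Fgf21 had the lowest p of its list and did not pass, where 0.632% of all genes tested did. It read 10.6 to 12.31 in WT and 8.53 to 9.94 in Lcn2-/- CCl4 livers, without overlap. Between these groups 5.66% of all genes tested did not overlap. In the contrast averaged over treatments, Fgf21 was called as lower in Lcn2-/- livers. That was 1 of 10 fasting-induced genes, where 2.3% of all genes tested were called. The count was lower in 1 of 27 alternative settings and higher in 6. The feeding-induced genes gave 0 of 10 calls between genotypes (lowest p Thrsp in controls, 1.17, adjusted p 0.114, and Pnpla3 under CCl4, -1.91, adjusted p 0.231). The 9 glucocorticoid-induced and 7 temperature-responsive genes tested gave 0 calls between genotypes too, led by Tsc22d3 (0.62, adjusted p 0.672) and Hsph1 (0.64, adjusted p 0.724) in controls and by Sgk1 (-0.59, adjusted p 0.150) and Hsph1 (0.81, adjusted p 0.274) under CCl4.

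After CCl4, 8 of 10 feeding-induced genes rose in WT livers, among them Pnpla3 (4.28), Fasn (2.43), Elovl6 (2.28) and Acaca (1.77), with a median of 1.48, and 3 rose in Lcn2-/- livers (Fasn, Elovl6 and Acaca). Of all genes tested, 16.8% were called in WT and 12.2% in Lcn2-/- livers, and 0 genes of the feeding, fasting, glucocorticoid or temperature lists were called in the interaction, so the counts are not shown to differ between genotypes. Fasting-induced genes rose as well, 3 of 10 in WT (Cyp4a14, 4.30, G6pc, 1.14, and Pdk4, 0.99) and 4 in Lcn2-/- livers, among them Cyp4a14, Igfbp1 and Pdk4. Of 9 glucocorticoid targets, Sgk1 (0.98) and Tsc22d3 (0.99) rose in WT livers, and the list median was 0.11. Of the others, Dusp1, Fkbp5 and Tat had higher means under CCl4 in WT livers, and Klf9, Zbtb16, Mt1 and Mt2 lower ones. Of 7 temperature-responsive genes tested, the cold-inducible Cirbp (-0.55) fell in WT livers, and the list median was 0.27. The mean of Rbm3 was 13.91 in WT controls and 14.18 in WT CCl4 livers. In Lcn2-/- livers 0 genes of these glucocorticoid and temperature lists passed. With slide as a block the feeding-induced count was 7 in WT and 2 in Lcn2-/- livers, and the fasting-induced count 1 in each. Without single arrays the WT counts ran from 7 to 8 for feeding-induced genes, 1 (without WT control 1) to 3 for fasting-induced genes, 1 (without WT control 1 or 2 or WT CCl4 1) to 3 for glucocorticoid targets and 0 to 2 for temperature-responsive genes. The temperature count was 0 without any 1 of WT control 1, 2 and 4 and WT CCl4 1, 2, 4 and 5. In Lcn2-/- livers the feeding-induced count ran from 2 to 4 and the fasting-induced count from 3 to 5, with 0 to 1 for glucocorticoid and 0 to 2 for temperature genes. The part of feeding, hormone or temperature in the clock values was not tested.

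Some markers of cell types other than hepatocytes passed after CCl4, which does not tell cell number from RNA per cell. Of 8 stellate cell and myofibroblast markers 6 rose in each genotype, where 16.8% of all genes tested were called in WT and 12.2% in Lcn2-/- livers, and of 8 hepatocyte markers 0 passed in any contrast. Of 8 macrophage markers Gpnmb, Trem2 and Cd68 rose in both genotypes and the Kupffer cell marker Clec4f fell in WT livers. Of 6 neutrophil markers Retnlg rose in both genotypes, and S100a8 and S100a9 rose in WT livers. Of 6 lymphocyte markers tested Cd3e and Nkg7 fell in WT livers. Of 6 endothelial markers Lyve1 rose in both genotypes and Stab2 fell in WT livers, and of 5 cholangiocyte markers Spp1 rose in both. Between genotypes, 1 marker of all lists passed, Gpnmb of the 8 macrophage markers, at least 4.05-fold lower in Lcn2-/- controls (adjusted p 0.0132). Its probe was well above background on 0 of the 3 Lcn2-/- control arrays, so the fold is a bound, set by the lowest signal well above background on each array. Summed stellate signal, on the log2 scale, was 13.58 to 13.88 in Lcn2-/- and 14.07 to 15.77 in WT controls. The part of cell composition in the fall of Nr1d1 and in the genotype differences of Arntl and the Per genes was not tested.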

How the data were processed

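The authors labelled liver RNA with Cy3 and hybridised it to Agilent 1-colour arrays, and per the file headers each deposited file gives spot intensity on a linear scale, not normalized between arrays. A series table of log2 values, deposited by the authors as well, equals quantile-normalized log2 of median signal minus local background for 99.86% of values (tolerance 0.05). It served as an alternative, and its differences are on the log2 scale as well. The 10 genes, the lists and the added contrasts were chosen with earlier results of these data known.

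Here control spots and outlier spots were left out, log2 processed signal was quantile normalized over 16 arrays, spots of a probe were averaged, probes passing the image software's well-above-background call on 3 or more arrays were kept, and the brightest probe stood for each gene. Names came from RefSeq (GRCm38.p6) accessions or the file. Differences were fitted with limma 3.58.1 (R 4.3.3; lmFit, contrasts.fit, eBayes) in 1 model of 4 groups, with Benjamini-Hochberg adjustment over 24356 genes per contrast and a threshold of 0.05, for 5 contrasts and 2 added ones. Intervals cover 95%. The script was tested on simulated data.

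The 9 tested clock genes are named in every contrast, and Npas2, not tested, by its levels. From each list, called genes are named (at most 8, by size), or else the gene with the lowest p, and the 5 most and least like Arntl and Dbp are given. Usp2, Ciart and other genes given array by array were picked after their values were seen. Some listed genes are not reported here.

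The share of spots well above background ran from 51.6% to 60.9% per array. The number of arrays limits the precision. Replicate numbers of WT and Lcn2-/- controls deviated together (r 0.23 to 0.55 in 3 pairs), so the fit with the replicate block is given beside the Arntl difference in controls, while the main fit has no block. Other groups' numbers did not. Alternatives were other scaling, background correction, filters, probes, array weights, slide, slide row (added) and replicate blocks, and each array left out.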

Additional observations from a re-analysis of the deposited data

Results flagged for a closer look

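Among 30 sets of 4 or 5 values checked (each gene or the limb difference in a group), 3 held a liver far from the rest by Dixon's ratio, where chance flags about 1 in 20. Clock was 10.47 in WT control 3, against 11.19 to 11.31 in the other WT controls. Nr1d1 was 11.63 in the same liver, against 12.30 to 12.38. Clock was 11.37 in WT CCl4 5, against 10.81 to 10.92 in the other WT CCl4 livers.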

How the results depend on the processing

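The counts of clock genes called moved as follows. In the CCl4 response in WT the 1 call became 0 with slide as a block, within slide 1 and with the replicate block, and was 1 without any single array. In Lcn2-/- livers array weights called 1, as under CCl4 between genotypes. Between control genotypes, 1 was called with the deposited table and 1 without both WT control 3 and Lcn2-/- control 3, and 5 with array weights, with 0 to 1 when 1 array was left out. In the genotype mean, the count of 2 became 1 without a filter on dim probes, with slide as a block and with the replicate block, 0 with slide row as a block, 3 with the deposited table (Per3 added, adjusted p 0.0490), 6 with array weights, and 1 to 3 without single arrays. With 75th percentile scaling it stayed 2, with Clock lost (adjusted p 0.0688) and Per1 gained (adjusted p 0.0496). In the mean CCl4 response, the count of 1 became 2 with probes well above background on all 16 arrays or the second brightest probe, 0 with slide as a block, and 1 to 2 without single arrays. The replicate block changed no other call of a clock gene count. Interaction counts stayed at 0.

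The differences below changed sign, and none was called as reported. For the CCl4 response in WT, Arntl was 0.042 with the replicate block, 0.17 with slide row as a block and -0.31 to 0.36 without single arrays. Clock was -0.28 to 0 without single arrays (highest 0.0024). Nr1d2 was 0.23 with the other probe, 0.23 with slide as a block, 0.23 within slide 1 and -0.091 to 0.046 without single arrays. Dbp was -0.25 with scaling to the 75th percentile (under which the median of all genes was -0.16, against -0.032 with quantile normalization), -0.051 with the replicate block and -0.15 to 0.12 without single arrays. In Lcn2-/- livers, Arntl was -0.26 with slide as a block. Per1 was -0.050 with 75th percentile scaling, -0.17 without both control arrays 3 and -0.22 to 0.22 without single arrays. Per3 was -0.20, -0.044 and -0.26 to 0.39 in the same settings. Nr1d2 was 0.27 with the other probe and 0.15 with slide as a block. Between genotypes under CCl4, slide row as a block gave -0.14 for Per3, -0.057 for Cry1, 0.18 for Nr1d1 and -0.12 for Nr1d2. Without single arrays Cry1 was -0.051 to 0.55 and Nr1d1 -0.44 to 0.15. In controls, slide row as a block gave -0.24 for Cry1 and -0.038 for Nr1d2, and Cry1 was -0.020 to 0.32 without single arrays. In the genotype mean, it gave -0.15 for Cry1 and -0.077 for Nr1d2. For the interaction, Clock was 0.038 with array weights, 0.071 without both control arrays 3 and -0.20 to 0.11 without single arrays. Cry1 was -0.078 with array weights and -0.19 to 0.42 without single arrays, and Nr1d2 was 0.035 with the other probe. In the mean CCl4 response, slide as a block gave -0.47 for Arntl and 0.19 for Nr1d2, and the other probe gave 0.25 for Nr1d2 (adjusted p 0.0479). The cause of these changes was not tested. The main limits are 3 to 5 livers per group, slide that goes with treatment, row that goes with genotype and an unknown hour of collection.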
